A study of Homo sapiens with 2 samples.

Results

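The aminoacyl-tRNA synthetases, the enzymes that join each amino acid to its tRNA, were followed through an RNA immunoprecipitation (IP) from Huh-7, a cell line established from a human liver carcinoma. The members were 35 genes taken by symbol from a table of 25556 genes, 19 for cytosolic enzymes and 16 for mitochondrial ones, and all 35 were in the table. The group called IP is 1 library from untreated wild-type Huh-7 cells, and the group called input is 1 library from untreated wild-type cells of the same line without precipitation. The series' design text gives the IP antibody as one against SRSF7, a splicing factor of the serine/arginine-rich family, and the treatment label of the IP reads SPSF7 Q16629. The protocol given for the samples instead has poly(A) RNA precipitated with anti-YTHDF2, an antibody to a reader of m6A, so the libraries are called here by their titles and nothing is said of which protein was precipitated. Each group is a single library, so there is no replicate check of any difference and no test between the groups was made.

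A synthetase matches an amino acid to the tRNAs that carry its anticodons, and translation in the cytosol and in mitochondria each needs a set of its own. Most mitochondrial enzymes have their own nuclear genes, marked by a 2 at the end of the symbol, while KARS1 and GARS1 make both a cytosolic and a mitochondrial form. QARS1 has no mitochondrial partner, because mitochondria charge the glutamine tRNA with glutamate through EARS2 and then amidate it. EPRS1 joins the glutamyl and prolyl enzymes in a single protein, and the phenylalanyl enzyme of the cytosol is built from FARSA and FARSB subunits. EPRS1, IARS1, LARS1, MARS1, QARS1, RARS1 and KARS1 are held with scaffold proteins in the multisynthetase complex. In amino acid shortage the transcription factor ATF4 is known to raise many cytosolic synthetase genes.

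Reads assigned to genes numbered 5897293 in the IP library and 2782045 in the input library. Levels are RPKM as deposited, reads scaled for the exon length of the gene and the assigned reads of the library. All 9 hepatocyte and hepatoma markers were present, between 49.1 and 1613 RPKM in the IP and between 54.5 and 2814 RPKM in the input. The 6 erythroid markers, led by HBB at 467 RPKM in the IP and 738 RPKM in the input, summed to 698 and 1057 RPKM in those libraries. The 5 immune markers summed to 7.98 RPKM in the IP and 15.0 RPKM in the input, and PECAM1 of endothelium stood at 2.43 and 3.76 RPKM. VWF, the other endothelial marker on the list, was not analysed here. The 3 fibroblast markers ran from 0.151 RPKM for COL1A1 to 14.9 RPKM for FBLN1 in the IP, and from 0.0798 to 10.9 RPKM in the input. Both libraries are labelled as the same cell line, so these levels are not read here as a mixture of cell types. The source of the transcripts cannot be told from these data, and their part in the results was not tested.

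Cytosolic synthetase mRNAs were the more abundant set. Their level ran from 2.81 to 82.4 RPKM in the IP, with a median of 17.8, and from 2.67 to 43.4 RPKM in the input, with a median of 15.7. FARSA, NARS1 and KARS1 stood at the top of this set in the IP, and FARSB, LARS1 and HARS1 at the bottom. RPKM divides by the merged exons of all transcripts, which span 14155 bases in HARS1 and 20639 in LARS1 against 2434 in FARSA. The 14 mitochondrial members with a mean of at least 1 RPKM had a median of 3.10 RPKM in the IP and 2.35 RPKM in the input, and all 16 ran from 0.631 to 19.1 RPKM in the IP and from 0.464 to 24.0 RPKM in the input. IARS2 and RARS2 were well above the other mitochondrial members in both libraries. CARS2, with 0.812 RPKM in the IP and 0.827 RPKM in the input, and FARS2, with 0.631 and 1.04 RPKM, fell below the mean of 1 RPKM that was required for the counts over all genes. Counts of members past a fold or with an interval on 1 side of 1 therefore cover 33 genes, while the pairs of enzymes below include those 2 genes.

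**Figure D1:**
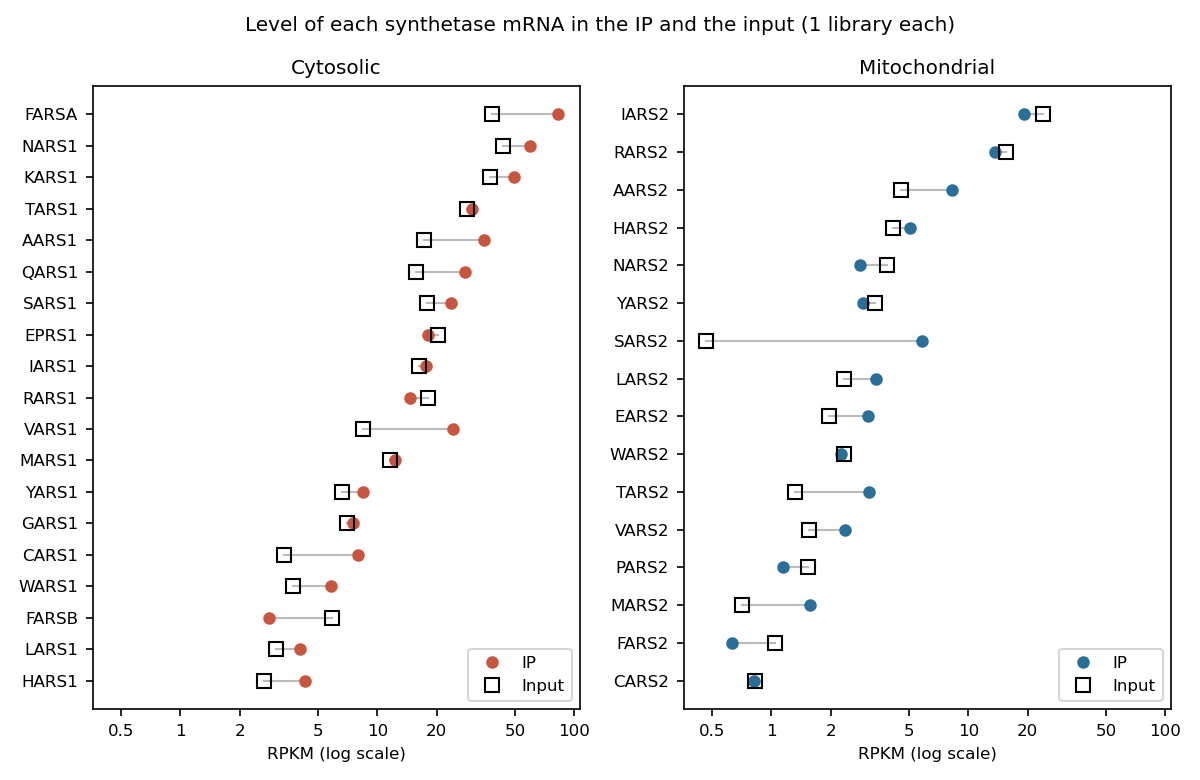
RPKM (log axis) of each cytosolic (left) and mitochondrial (right) synthetase mRNA in the IP (filled circles) and the input (open squares), 1 library each, ordered by the mean of both. Cytosolic members reach 82.4 RPKM, mitochondrial ones 24.0 RPKM, and SARS2 has the widest gap between IP and input.

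The promoters of several cytosolic members held the 8-base core of the C/EBP-ATF response element, the DNA sequence to which ATF4 binds with a C/EBP partner in amino acid shortage. Promoter windows of 300 bases, from 250 bases before to 50 after the start, were found for 30 of the 35 members in the RefSeq table of GRCh38.p14, by symbol. The search was for TGATGNAA on either strand. Of the members with a window, 7 of 16 cytosolic ones (43.8%) and 1 of 14 mitochondrial ones (7.14%) had a match, against 3.62% of all 35116 windows and 4.46% of the 27305 genes with a window. In the 250 bases before the start alone, 3 cytosolic and 1 mitochondrial member had a match, against 3.14% of all windows. The matches are shown with 11 bases on each side along the gene's strand, with the 8 matching bases in capitals, because 5 of the 8 carried the identical TTGCATCA, the reverse complement of TGATGCAA.
AARS1, chr16:70289675-70289704, minus strand: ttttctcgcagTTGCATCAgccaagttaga
CARS1, chr11:3057407-3057436, minus strand: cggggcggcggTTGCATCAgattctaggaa
IARS1, chr9:92293692-92293721, minus strand: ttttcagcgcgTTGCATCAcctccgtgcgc
MARS1, chr12:57488053-57488082, plus strand: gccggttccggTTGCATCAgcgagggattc
TARS1, chr5:33440956-33440985, plus strand: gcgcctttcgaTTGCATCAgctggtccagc
NARS1, chr18:57621804-57621833, minus strand: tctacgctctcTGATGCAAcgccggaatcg
GARS1, chr7:30594834-30594863, plus strand: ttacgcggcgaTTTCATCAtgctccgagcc
YARS2, chr12:32756076-32756105, minus strand: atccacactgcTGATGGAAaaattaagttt
In IARS1, MARS1, CARS1, TARS1 and NARS1 the match began within 15 bases of the start on either side, whereas in AARS1 and YARS2 it began at -187 and -197. A match is a run of letters and shows no binding. The 7 cytosolic members with a match had a median input level of 16.2 RPKM (3.37 to 43.4) and the 9 without one 17.9 RPKM (2.67 to 38.4), so the ranges overlapped almost wholly. Their median log2 IP over input ratios were 0.12 and 0.39.

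The histidyl enzymes are encoded head to head. The bases between their RefSeq starts are shown because they lie in the promoter windows of a cytosolic and a mitochondrial member. HARS1 (chr5:140673035-140691537 in the deposited table, minus strand) and HARS2 (chr5:140691430-140699305, plus strand) start on opposite strands. In those deposited coordinates the genes overlap, with 108 exon bases in common, and the bases shown lie within the span of HARS1. Their promoter windows in the RefSeq table shared 184 of 300 bases. The 84 bases between the annotated starts in GRCh38.p14, lie in both windows and are shown on the plus strand, the strand of HARS2, and are 59.5% G and C.
HARS2 and HARS1, chr5:140691371-140691454: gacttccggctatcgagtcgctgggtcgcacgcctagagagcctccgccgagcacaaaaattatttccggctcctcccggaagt
HARS1 had 4.29 RPKM in the IP and 2.67 RPKM in the input, and HARS2 5.06 and 4.16 RPKM. HARS2 lay slightly above the median level of all genes tested, 4.47 RPKM in the IP and 4.11 RPKM in the input, and HARS1 below it. The RPKM ratio was 1.61 for HARS1 (95% counting interval 1.29 to 2.02) and 1.22 for HARS2 (0.849 to 1.77). The HARS1 ratio was 1.32 times that of HARS2, with an exact interval of 0.850 to 2.03 that includes 1.

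As deposited, more members lay higher in the IP than lower. The RPKM ratio, IP over input, was above 1 for 24 of 35 members (68.6%) and below 1 for 11, against 57.7% of all genes tested above 1 and 62.0% of the protein-coding genes in the members' range of exon length. The exact interval of the ratio, which covers counting error only, lay wholly above 1 for 17 of the 33 members with a mean of at least 1 RPKM, against 31.4% of all 14057 genes tested, and wholly below 1 for 3, against 18.6%. Among those protein-coding genes, 8557 in number, these shares were 40.0% and 19.7%. With the libraries scaled on their protein-coding reads, 8 members had an interval above 1 and 10 one below 1, so the balance between higher and lower members turned with the scale. All genes moved with that scale, from a median log2 ratio of 0.14 to -0.16. Their shares on it are not given here. An interval narrows with reads, and the members were deeper (median 358 IP and 128 input reads) than all genes tested (100 and 43) or those protein-coding genes (169 and 70). The part of depth in these shares was not tested.

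As deposited, synthetases reached 2-fold or 1.5-fold higher in the IP about as often as all genes tested did. On the lower side, 0 members reached 2-fold and 1 reached 1.5-fold, and these counts became 1 and 4 when scaled to protein-coding reads. The shares of all genes on that scale are not given here. On the scale of log2((IP + 1)/(input + 1)), which understates the change of low genes, 4 members (12.1%) reached 2-fold higher in the IP, against a background of 11.3%, and 0 reached 2-fold lower, against 8.25%. At 1.5-fold, 8 members (24.2%) were higher, against 25.5%, and 1 (3.03%) was lower, against 17.1%. Of the protein-coding genes in the members' range of exon length, 8.19% reached 2-fold higher and 2.94% 2-fold lower, and 24.8% reached 1.5-fold higher and 10.7% 1.5-fold lower. The median log2 ratio of the members was 0.38, against 0.14 for all genes tested and 0.19 for those protein-coding genes. Scaling to reads in protein-coding genes put it at 0.0065, against -0.16 for all genes, and scaling to the same RPKM sum put it at 1.45, against 1.21. The members' median lay above that of all genes as deposited. A scaling moves the members and all genes nearly alike, so the same order under either scaling is no check of it. The sign of the members' median against 0 rested on the scale.

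**Figure D2:**
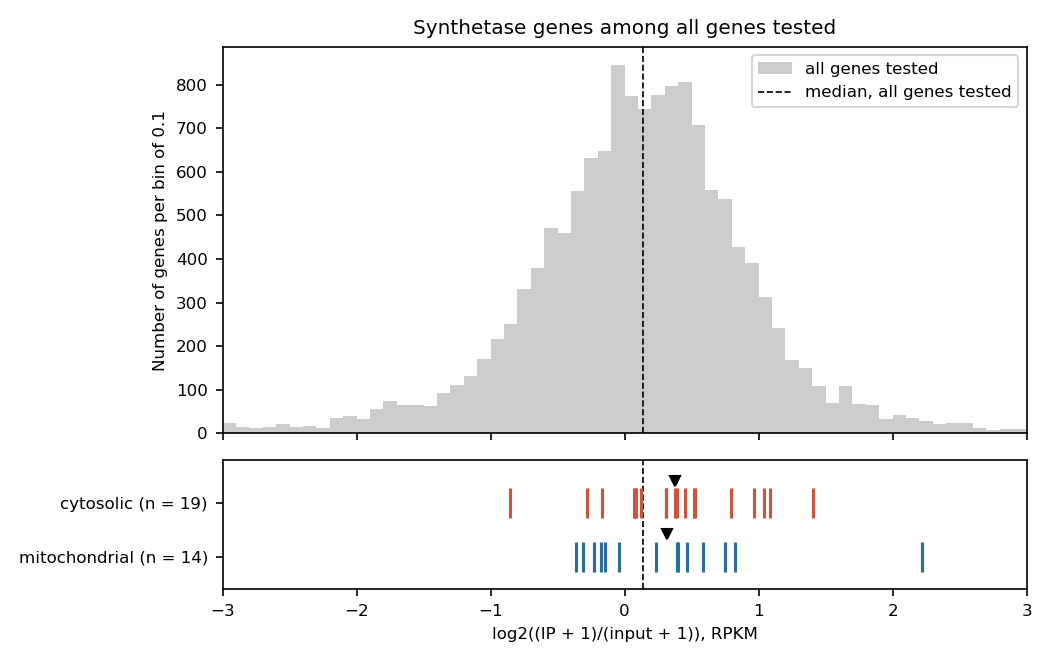
Upper panel, the number of genes per bin of the log2 IP over input ratio for all genes tested, of which 154 lie beyond 3 on either side and are not drawn; lower panel, each measured cytosolic and mitochondrial synthetase as a tick and each set's median as a triangle. The medians of both sets, 0.38 and 0.31, lie right of the dashed median of all genes, 0.14.

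Among cytosolic enzymes outside the multisynthetase complex, VARS1, CARS1, FARSA and AARS1 had the highest ratios of IP over input. VARS1 (chr6:31777518-31795752), the valyl enzyme and a partner of elongation factor 1, had 840 reads and 24.2 RPKM in the IP, against 139 reads and 8.50 RPKM in the input. CARS1 (chr11:3000922-3057613), the cysteinyl enzyme, had 7.96 RPKM in the IP, against 3.37 RPKM in the input. AARS1 (chr16:70251983-70289707), the alanyl enzyme, had the most reads of all members, 2095 in the IP and 492 in the input, or 34.7 and 17.3 RPKM. All 3 were above their input level. CARS1 also shares 205 exon bases with an antisense gene, CARS1-AS1, that had 16 IP and 3 input reads. The ratio was 2.85 for VARS1 (2.38 to 3.44), 2.36 for CARS1 (1.89 to 2.98) and 2.01 for AARS1 (1.82 to 2.22).

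The phenylalanyl enzyme had subunits on opposite sides. FARSA (chr19:12922479-12934037), the catalytic alpha subunit, had 82.4 RPKM in the IP, against 38.4 RPKM in the input. FARSB (chr2:222566899-222656092), the beta subunit, had 2.81 RPKM in the IP, against 5.90 RPKM in the input. FARSA was the highest synthetase mRNA of the IP, and FARSB the lowest of the cytosolic ones. The ratio was 2.15 for FARSA (1.88 to 2.46) and 0.476 for FARSB (0.363 to 0.625), which became 1.14 with scaling to the same RPKM sum. The FARSA ratio was 4.51 times that of FARSB (exact interval 3.32 to 6.12, or 2.93 to 7.05 from 0.5 of the reads), a value that no scaling of the libraries changes.

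The remaining cytosolic enzymes outside the complex lay between these. WARS1, the tryptophanyl enzyme induced by interferon, had 5.79 RPKM in the IP, against 3.73 RPKM in the input (ratio 1.55, 1.17 to 2.08). NARS1, the asparaginyl enzyme, had 59.8 RPKM in the IP, against 43.4 RPKM in the input (1.38, 1.24 to 1.53). SARS1, the seryl enzyme, had 23.6 RPKM in the IP, against 17.9 RPKM in the input (1.32, 1.11 to 1.56), and YARS1, the tyrosyl enzyme, 8.45 against 6.61 RPKM (1.28, 1.08 to 1.52). All 4 were above their input level by less than 2-fold. TARS1 and GARS1, the threonyl and glycyl enzymes, had 30.2 and 7.51 RPKM in the IP, against 28.5 and 7.04 RPKM in the input. Their ratios, 1.06 (0.931 to 1.21) and 1.07 (0.938 to 1.22), had intervals that include 1, although they had 757 and 769 IP reads, so a ratio as large as that of AARS1 lies outside their counting intervals.

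The 7 synthetases of the multisynthetase complex lay on both sides of 1. QARS1 (chr3:49095932-49105130), the glutaminyl enzyme, had 27.8 RPKM in the IP, against 15.7 RPKM in the input, a ratio of 1.78 (1.52 to 2.08). KARS1, the lysyl enzyme, had 49.4 RPKM in the IP, against 37.5 RPKM in the input (1.32, 1.18 to 1.48), and LARS1, the leucyl enzyme, 4.03 against 3.07 RPKM (1.32, 1.11 to 1.57). These 3 were higher in the IP. IARS1, the isoleucyl enzyme, had 17.8 RPKM in the IP, against 16.2 RPKM in the input (1.09, 0.962 to 1.25), and MARS1, the methionyl enzyme, 12.3 against 11.6 RPKM (1.06, 0.901 to 1.24). EPRS1, the joint glutamyl and prolyl enzyme, had 18.1 RPKM in the IP, against 20.4 RPKM in the input (0.886, 0.769 to 1.02). RARS1, the arginyl enzyme, had 14.7 RPKM in the IP, against 18.1 RPKM in the input (0.812, 0.671 to 0.985), and its interval included 1 when computed from 0.5 of the reads. The complex had a median log2 ratio of 0.12, with 0 of 7 members past 2-fold, and the 12 cytosolic members outside it had a median of 0.49, with 3 higher and 0 lower past 2-fold, against 11.3% and 8.25% of all genes tested.

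**Figure D3:**
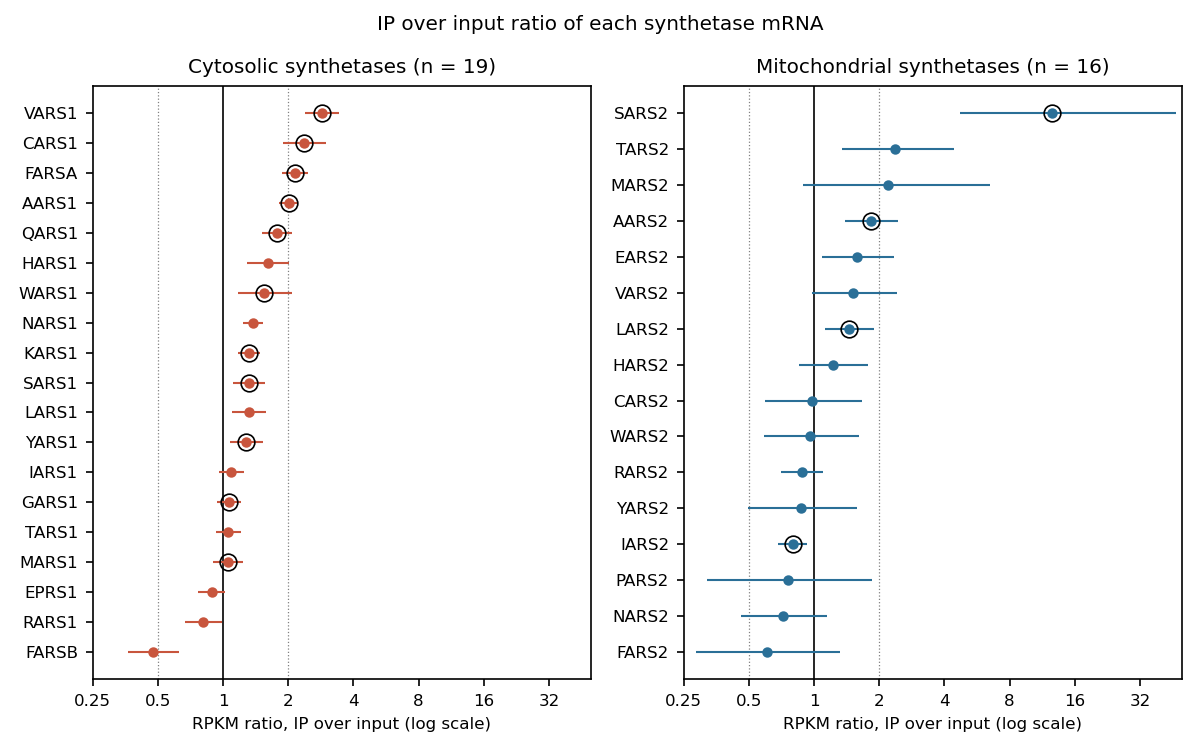
RPKM ratio of IP over input (log axis) for each cytosolic (left) and mitochondrial (right) synthetase, with the exact 95% counting interval; black circles mark members with at least 1 deposited peak, the solid line a ratio of 1 and the dotted lines 0.5 and 2. VARS1 leads the cytosolic set at 2.85 and SARS2 the mitochondrial set at 12.5, with an interval from 4.74 to 46.7, and FARSB is lowest at 0.476.

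Mitochondrial synthetase mRNAs had ratios on both sides of 1. Of 14 measured members, 5 had an interval above 1, 1 below 1 and 8 had one that includes 1, with a median of 98 IP and 31 input reads. Among all genes tested, 31.4% had an interval above 1, 18.6% one below 1, and 7028 of 14057 one that includes 1. SARS2 (chr19:38915266-38930763), the mitochondrial seryl enzyme, had 106 IP reads and 4 input reads, or 5.80 RPKM in the IP and 0.464 RPKM in the input. No other member was so far apart between the libraries. Its ratio was 12.5 (4.74 to 46.7, or 3.29 to 105.9 from 0.5 of the reads). SARS2 shared 1492 exon bases with the clone-named gene AC011455.2 on the same strand, for which 120 reads were counted in the IP and 10 in the input, a ratio of 5.66 (2.97 to 12.1), so part of the reads may belong to either gene. MRPS12, a mitochondrial ribosomal protein gene that starts head to head with SARS2 and overlaps 216 of its exon bases on the opposite strand, was covered by 55 reads in the IP and 26 in the input, at a ratio of 0.998 (0.615 to 1.66). The SARS2 ratio was 12.5 times that of MRPS12 (exact interval 4.01 to 51.2, or 2.46 to 116.9 from 0.5 of the reads). Against AC011455.2 it was 2.21 times (0.612 to 9.90), with an interval that includes 1 and does not allow for reads common to both genes.

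Enzymes for alanine, threonine, glutamate and leucine were also higher in the IP among the mitochondrial members. AARS2 had 8.28 RPKM in the IP, against 4.53 RPKM in the input (1.83, 1.39 to 2.44). TARS2, with 75 IP and 15 input reads, had 3.12 RPKM in the IP, against 1.32 RPKM in the input (2.36, 1.34 to 4.42). LARS2 had 3.40 RPKM in the IP, against 2.35 RPKM in the input (1.45, 1.12 to 1.89). EARS2 stood at 1.58 times (1.09 to 2.33), with an interval that included 1 from 0.5 of the reads, and shared 203 exon bases with GGA2. MARS2, the methionyl enzyme, had 1.57 RPKM and 28 reads in the IP, against 0.712 RPKM and 6 reads in the input, and its ratio of 2.20 had an interval from 0.894 to 6.50. VARS2 was at 1.52 times (0.983 to 2.41), and most of its exon bases, 4073, also belonged to the clone-named gene AL669830.2.

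The 2 most abundant mitochondrial mRNAs were not among those higher in the IP. IARS2, the mitochondrial isoleucyl enzyme, had 19.1 RPKM in the IP, against 24.0 RPKM in the input, a ratio of 0.797 (0.685 to 0.928) and the only mitochondrial interval below 1. RARS2, the arginyl enzyme, had 13.6 RPKM in the IP, against 15.5 RPKM in the input (0.877, 0.705 to 1.10). NARS2, the asparaginyl enzyme, had 2.80 RPKM in the IP, against 3.88 RPKM in the input (0.721, 0.459 to 1.15), and PARS2, the prolyl enzyme, 1.15 against 1.53 RPKM (0.755, 0.322 to 1.86). YARS2 (0.873, 0.494 to 1.59) and WARS2 (0.962, 0.585 to 1.62), the tyrosyl and tryptophanyl enzymes, lay nearer to 1. These 4 had 52 or fewer IP reads each, and their intervals included 1. CARS2 had 50 IP and 24 input reads (0.983, 0.593 to 1.67) and FARS2 18 and 14 (0.607, 0.285 to 1.32).

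Set against each other, the cytosolic and mitochondrial sets had similar medians. The median log2 ratio was 0.38 for the 19 cytosolic members (range over genes -0.86 to 1.41) and 0.31 for the 14 measured mitochondrial members (-0.36 to 2.22). Genes are not replicates, and these ranges describe the members only. With members left out whose exons overlap those of a neighbour on their own strand, the medians were 0.38 for 17 cytosolic and -0.094 for 10 mitochondrial members. The sign of the mitochondrial median thus rested on SARS2, HARS2, EARS2 and VARS2, which share such bases. Past 2-fold higher were 3 of 19 cytosolic members (VARS1, FARSA and CARS1, 15.8%) and 1 of 14 mitochondrial members (SARS2, 7.14%), on either side of the 11.3% of all genes tested. These counts use the pseudocount, which lowers the values of low genes most. Without it, the ratios of AARS1 (2.01), TARS2 (2.36) and MARS2 (2.20) also passed 2. The difference between the shares of the sets therefore rested on the pseudocount.

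Amino acid by amino acid, the sets differed in both directions. The members gave 17 pairs of a cytosolic and a mitochondrial enzyme for 16 amino acids, with EPRS1 and FARS2 each in 2 of them, and the cytosolic enzyme had the higher log2 ratio in 10 pairs and the mitochondrial one in 7. The exact interval of the ratio of ratios, which no scaling of the libraries changes, lay above 1 for 5 pairs, below 1 for 3 and included 1 for 9. For phenylalanine the subunits of the cytosolic enzyme lay on opposite sides of FARS2, which had 18 IP and 14 input reads, with FARSA over FARS2 at 3.54 (1.60 to 7.63) and FARSB over FARS2 at 0.785 (0.343 to 1.76). The cytosolic enzyme was the higher one for cysteine (2.41, 1.34 to 4.21), asparagine (1.91, 1.18 to 3.03), valine (1.88, 1.14 to 3.03) and isoleucine (1.37, 1.12 to 1.68). The mitochondrial enzyme was the higher one for serine, where the cytosolic ratio was 0.105 times the mitochondrial one (0.0279 to 0.284), for threonine (0.449, 0.236 to 0.804) and for glutamate (EPRS1 over EARS2 0.562, 0.370 to 0.838). For alanine the pair lay close together, at 2.01 for AARS1 and 1.83 for AARS2, with a ratio of ratios of 1.10 (0.810 to 1.47), and likewise for leucine (0.908, 0.660 to 1.24) and arginine (0.926, 0.688 to 1.24). With 0.5 of the reads, 3 pairs lay above 1 (phenylalanine with FARSA, cysteine and isoleucine) and 2 below 1 (glutamate and serine).

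**Figure D4:**
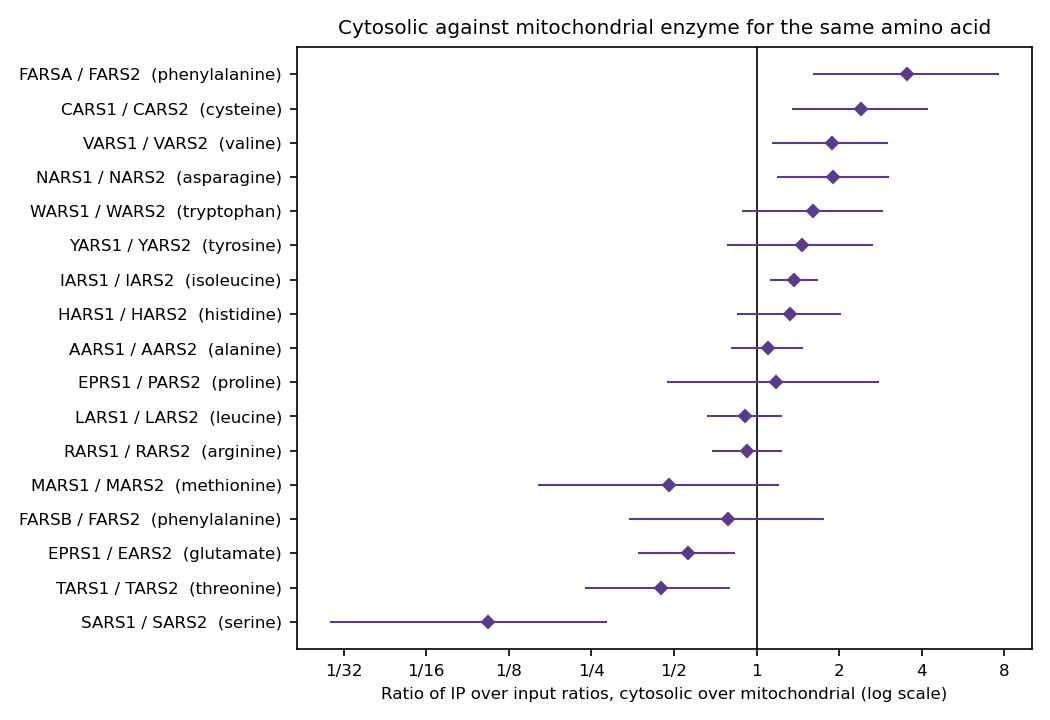
IP over input ratio of the cytosolic enzyme divided by that of the mitochondrial enzyme for the same amino acid (log axis, 17 pairs), with exact 95% intervals from reads, ordered by the difference in log2 ratio. Intervals lie right of 1 for 5 pairs and left of 1 for 3, with SARS1 over SARS2 at 0.105 farthest left.

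Peaks in the authors' deposited table, each with a fold, a p and a false discovery rate of the authors' own, fell in many synthetase genes. Of the table's 7643 peaks, 36 lay in 15 of the 35 members, 27 in 11 cytosolic and 9 in 4 mitochondrial ones. All 15 were measured members, 45.5% of 33, against 21.4% of all genes tested and 32.7% of protein-coding genes in the members' range of exon length. Since a peak call needs reads, the greater depth of the members given above stands beside this share too. Members with a peak had a median log2 ratio of 0.52 and a median of 192 input reads, and members without one 0.03 and 40.5. The peaks, all with a fold of at least 2, and the ratios both compare the same IP with the same input. A higher ratio in members with a peak is therefore partly built in. The median input reads of members with and without a peak were 205 and 239 in the cytosolic set, and 73.5 and 24.5 in the mitochondrial set. In the authors' deposited table the folds of these peaks ran from 2.01 to 33.9 with a median of 2.49, and 15 of the 36 had a false discovery rate above 0.05, which leaves 21 peaks in 9 members. The shares of all genes above were taken without this limit. Shares with it are not given here, so the 9 members cannot be set against them.

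VARS1 carried the most peaks, 8, followed by FARSA with 5 and AARS1, MARS1 and SARS2 with 3 each. In VARS1, 7 of the 8 were centred within the first 51.9% of the merged exons, and the smallest p in the authors' deposited table, 5.72e-07, belonged to the peak at chr6:31791896-31792846 with a fold of 2.82. In FARSA the authors' deposited table gave p = 1.41e-08 and a fold of 2.42 to the peak at chr19:12930404-12930613, the smallest p of any synthetase peak. In AARS1 the largest peak covered 3126 exonic bases at chr16:70254711-70258092 with a fold of 2.16 in the authors' deposited table, and the other 2 lay toward the 3′ end. QARS1 had 2 peaks, at folds of 2.36 and 2.21 in that deposited table of the authors. The ratios over the whole gene, which come from the same libraries as the peaks, were high for VARS1, FARSA, AARS1 and QARS1. MARS1 stood at 1.06 (0.901 to 1.24).

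Peaks occurred as well in members whose overall level was not higher in the IP. IARS2, at 0.797 times its input level, had 2 neighbouring peaks with folds of 2.04 and 3.51 in the authors' deposited table, both with a false discovery rate above 0.05. MARS1 and GARS1, with intervals that include 1, had 3 peaks and 1 peak. Conversely HARS1, NARS1, LARS1, TARS2 and EARS2, with intervals above 1, had none. Peak folds above 20 in the authors' deposited table, 33.9 and 23.3 in SARS2 and 25.4 in VARS1, were 16, 11 and 12 times 2.12, the ratio of IP to input reads, and the sources used here do not say how they were computed. The exonic bases of the 23.3-fold peak belonged equally to another gene on that strand, and the peak went to SARS2 by the rule for ties. Along the merged exons, cut into 3 equal stretches, 13 of the 36 peaks were centred in the 5′ stretch, 15 in the middle one and 8 in the 3′ one.

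**Figure D5:**
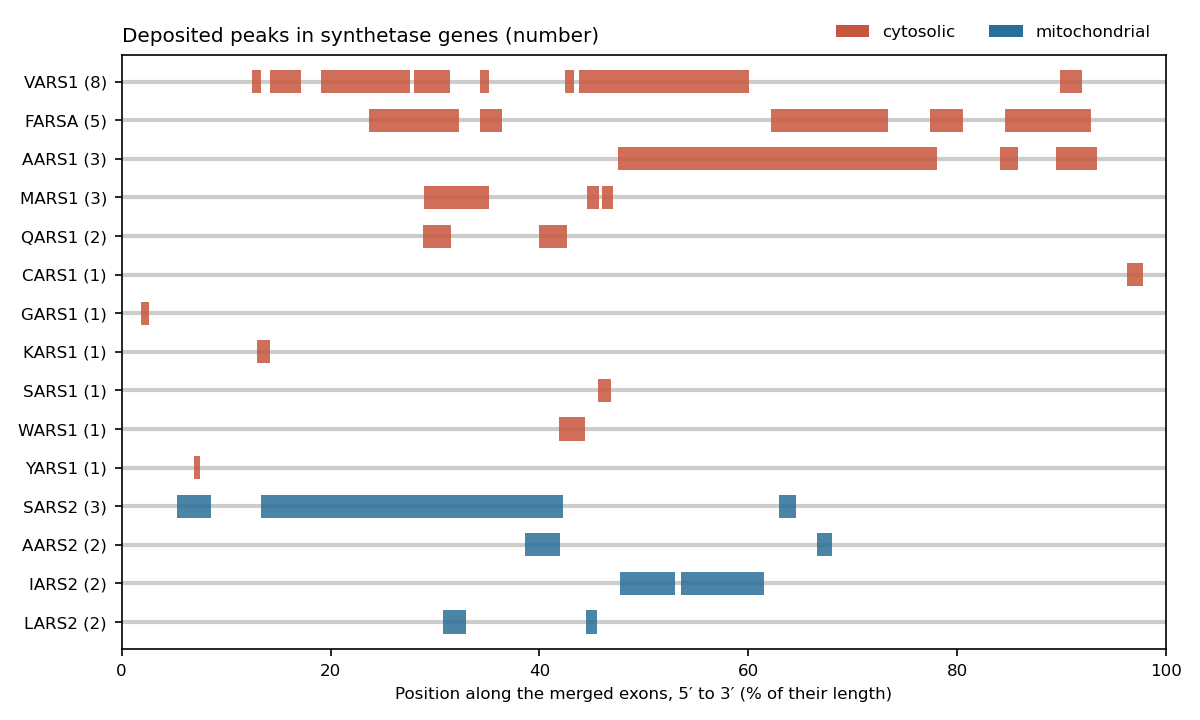
Deposited peaks (bars) along the merged exons of each synthetase gene that carries any, from 5′ to 3′ in percent of their length, with the number of peaks after the symbol; cytosolic members above, mitochondrial members below. VARS1 has 8 peaks, 7 of them centred within the first 51.9% of the length, and CARS1 has its only peak near the 3′ end.

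Synthetase genes with a high ratio tended to have a short genomic span. On the log2 scale given above, the Spearman correlation of the log2 ratio with the genomic span of the gene was -0.49 across the 33 measured members, -0.59 across the 19 cytosolic ones and -0.34 across the 14 mitochondrial ones, against 0.04 across 9719 protein-coding genes tested. QARS1, FARSA, SARS2, AARS2 and VARS1 spanned 9199 to 18235 bases, while FARSB spanned 89194 and NARS2 138907. CARS1, at 56692 bases, and LARS2, at 166166, were higher in the IP with long spans, and HARS2 and PARS2, at 7876 and 7626 bases, had intervals that include 1. The correlation with exon length was 0.18 across the members and 0.21 across those protein-coding genes. All points come from the same 2 libraries, and these values describe them only. Class I and class II enzymes, which differ in the fold of the catalytic domain, had medians of 0.31 over 17 measured members and 0.39 over 15.

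Genes that work with the synthetases, pooled with 10 genes of the amino acid response, had a median log2 ratio of -0.17, against 0.14 for all genes tested. Of 29 genes in these pooled lists, 27 were measured, 5 with an interval above 1 and 10 with one below 1, against 31.4% and 18.6% of all genes tested. The amino acid response genes, at a median of 0.28, held 3 of those 5 and 1 of those 10. At 2-fold, 0 were higher and 3 lower (EEF1E1, EEF1B2 and DTD2), against 11.3% and 8.25%. The 3 scaffolds of the multisynthetase complex had ratios below 1. EEF1E1 had 4.87 RPKM in the IP, against 15.1 RPKM in the input (0.322, 0.228 to 0.452), and shared 393 exon bases with a readthrough gene, AIMP1 was at 0.717 times (0.610 to 0.845) and AIMP2 at 0.834 times (0.566 to 1.24).

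Elongation factor 1, which receives charged tRNAs and binds VARS1, ran in both directions. EEF1B2, an exchange subunit, had 161 RPKM in the IP, against 338 RPKM in the input (0.478, 0.447 to 0.510). EEF1D, the subunit that holds VARS1, had 53.5 against 32.0 RPKM (1.67, 1.55 to 1.81), with 2934 exon bases shared with an antisense gene. EEF1D had 2964 IP and 836 input reads, and that antisense gene 2748 and 784 (1.65, 1.53 to 1.79). Part of these reads may therefore belong to either gene. EEF1A1, which carries the charged tRNA to the ribosome, and EEF1G, a structural subunit, were at 0.647 times (0.623 to 0.672) and 1.04 times (0.983 to 1.09) their input level. The mitochondrial elongation factors ran from TSFM, with 130 IP and 98 input reads (0.626, 0.478 to 0.822), to TUFM, with 1497 IP and 609 input reads (1.16, 1.05 to 1.28). TSFM shared 2160 exon bases with a clone-named gene on its strand. The subunits of the amidotransferase that finishes the mitochondrial glutamine tRNA ran from QRSL1, with 2.89 RPKM in the IP and 5.67 RPKM in the input (0.510, 0.376 to 0.692), to GATB, with 2.11 and 1.78 RPKM (1.19, 0.870 to 1.64). MTFMT, which formylates the mitochondrial initiator tRNA, had 14 IP and 5 input reads.

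Proofreading and transport genes were mixed. DTD2, a deacylase that removes wrongly charged residues, had 11.8 RPKM in the IP, against 44.5 RPKM in the input (0.266, 0.223 to 0.316). Its exons overlapped clone-named genes on both strands, with 483 bases shared on its own. AARSD1, which frees alanine tRNA of serine, had a ratio of 1.34 (0.982 to 1.85) and shares 1267 exon bases with a readthrough gene. TRNT1, which adds the CCA end, was at 0.943 times (0.685 to 1.31), and XPOT, the tRNA export receptor, at 0.814 times (0.707 to 0.939).

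The amino acid response genes lay closer to the synthetases. The 9 measured of 10 had a median log2 ratio of 0.28, with 0 past 2-fold. ATF4, given because its motif was searched above, had 139 RPKM in the IP, against 114 RPKM in the input (1.22, 1.13 to 1.31). PHGDH of serine synthesis was highest on the log2 scale, with 32.4 RPKM in the IP, against 20.9 RPKM in the input (1.55, 1.40 to 1.71), and PSAT1 of the same pathway lowest, with 28.7 against 44.6 RPKM (0.642, 0.548 to 0.753).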

How the data were processed

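Per the submitters' processing notes, Trimmomatic and STAR 2.5.3a were used on the reads. The design text has molecular tags against PCR duplicates and a stranded kit. How reads were counted, whether strand was used, the annotation, the genome build and the peak caller were not given in the sources used here. RPKM values were deposited by the authors for 1 IP and 1 input library. In both columns value times length gives 1 common sum, and every value was a whole multiple of 1 read within 0.01 (100% in both), which gave the reads. Of IP counts from 1 to 10, 78.5% were even, as counting both mates would give, so intervals from 0.5 of the reads were also computed. Deposited coordinates overlapped the RefSeq GRCh38.p14 gene for 35 of 35 members, and 24 had an identical start or end. Exons of 18 members overlapped a gene on the opposite strand and exons of 6 a gene on the same strand. If strand was not used in counting, reads in overlaps on the opposite strand may also belong to either gene, which was not tested. Per the file headers, the peak table holds a fold (ratio), a p-value and a false discovery rate, and a deposited score that was not used. The table has 0 columns of other samples.

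No count model or test was run, with 1 library per group. The planned value was log2((IP + 1)/(input + 1)) where the mean RPKM was at least 1. Ratios without the pseudocount have exact (Clopper-Pearson based) 95% intervals of both read counts, and ratios of ratios the exact conditional interval of the odds ratio. These cover counting error only and take reads as independent. They were tested on simulated data whose reads were also independent, so that test cannot show the effect of counting both mates. Peaks were given to the gene holding most of their exonic bases on the same strand (at least 1), with ties to a protein-coding gene. Alternatives were another pseudocount, other filters and 3 other scalings. The members and lists were chosen with earlier results of these data known. Values in both libraries were given for members with a peak, past 1.5-fold, among the 3 highest or lowest of a set, or in the multisynthetase complex, and for the highest and lowest gene of each other list. Versions were matplotlib 3.10.9, scipy 1.17.1, pandas 2.3.3, numpy 2.4.6 and Python 3.11.15.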

Additional observations from a re-analysis of the deposited data

How the results depend on the processing

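With 1 library per group nothing tells a library's own deviation from the effect of the IP, and the scale between the libraries sets where 1 lies. The members at least 2-fold higher were 4 as deposited, 7 with a pseudocount of 0.1, 2 after centring on the median of all genes, 2 when scaled on protein-coding reads and 26 when both libraries had 1 RPKM sum. Those at least 2-fold lower were 0, but 1 with a pseudocount of 0.1 or when scaled on protein-coding reads. At 1.5-fold, 8 higher became 5 on protein-coding reads and 31 on the common RPKM sum, and 1 lower became 4 and 0, and 0 under a filter at a mean of 5 RPKM. The median log2 ratio, 0.38 for all members and for the cytosolic ones, was 0.0065 for both on protein-coding reads, and 1.45 and 1.60 on the common RPKM sum. The mitochondrial median of 0.31 became 0.0094 on protein-coding reads and 1.36 on that sum. It became -0.094 for members sharing no exon bases with a gene on their own strand. Members with an interval above 1 numbered 17, against 8 and 31 under these scalings, and those below 1 numbered 3, against 10 and 0. Of the members past 1.5-fold, FARSB alone changed sides, to 1.14 on the common RPKM sum. With a false discovery rate of at most 0.05, 21 peaks in 9 members were left of 36 in 15. The shifts under a scaling or filter follow from its construction. A scaling moves all genes, and the shares of all genes under these settings are not given here. The cytosolic enzyme was the higher one in 10 of 17 pairs as deposited, with a pseudocount of 0.1 and on the common RPKM sum. The median differences were 0.22, 0.20 and 0.29 on the log2 scale. A scaling changes these differences only through the pseudocount, so the unchanged count on the common RPKM sum is no check of it. No paired analysis was possible because each group has 1 library. Ratios of members with few input reads, such as SARS2 with 4 and MARS2 with 6, are limited by depth.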
